A study of Mus musculus with 33 samples.

Results

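The 33 genes described here mark astrocytes, the glial cells that ring synapses and blood vessels in the cortex. They were chosen by gene symbol, as genes known for expression in astrocytes and not by a test, but with earlier results of these data known. All 33 were among the 21565 genes of the deposited table. The study sequenced RNA of the whole frontal cortex of male mice on a C57BL/6J background, 8 to 19 weeks old. All were collected at ZT 6 (ZT, zeitgeber time, counts hours from lights on). The mice were on a dark/dark schedule from 36 h before the experimental day. WT mice were left to sleep (CS, n = 6), kept awake for 6 h (SD, n = 7), or kept awake for 4 h and then allowed 2 h of recovery sleep (RS, n = 7). Mice with loxP sites around exon 11 of Mef2c and no Cre (Mef2c f/f) served as controls for the deletion, in CS (n = 4) and in SD (n = 3). Mef2c-cKO mice carried the same floxed alleles and Cre under the Camk2a promoter, which acts mainly in excitatory neurons of the forebrain, in CS (n = 3) and in SD (n = 3). MEF2C is a transcription factor of neurons and microglia. The study's methods state that some Mef2c-cKO offspring carried a recombined allele in tail DNA. Loss of Mef2c in other cells, astrocytes included, is possible in those mice. A legend of the study describes 2 of the 3 Mef2c-cKO CS samples as having such germline recombination, and the labels do not say which. The labels give each library as a sample of its own.

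Astrocytes take up glutamate and GABA released at synapses and return glutamine to neurons. They pass potassium, water and metabolites through gap junctions and channels to end-feet on blood vessels, and they store the glycogen of the brain. They also respond to injury or to disease of neighbouring neurons by raising the intermediate filament genes Gfap and Vim, a state called reactive. Metallothioneins are small proteins that bind zinc and copper, and in astrocytes Mt1 and Mt2 respond to metals and to glucocorticoids.

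In WT mice the intermediate filament genes Gfap and Vim, the transcriptional regulator Id3 and the 3 metallothionein genes were higher after SD than in CS, and the bicarbonate cotransporter gene Slc4a4 was lower; of these, the metallothioneins and Slc4a4 lost their calls once a trend with the GC content of transcripts was taken out, where Mt2 and Mt3 also turned below 0. In Mef2c f/f mice no member passed the test between CS and SD by limma or edgeR, and DESeq2 called Mt1. Mef2c-cKO libraries had more Aqp4, Fabp7, Gfap and Vim RNA than Mef2c f/f libraries in SD, and more Aqp4 RNA in CS, where 1 Mef2c-cKO library had Gfap and Vim levels far above all others. The map of all members by library shows these differences beside the spread between mice.

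**Figure D1:**
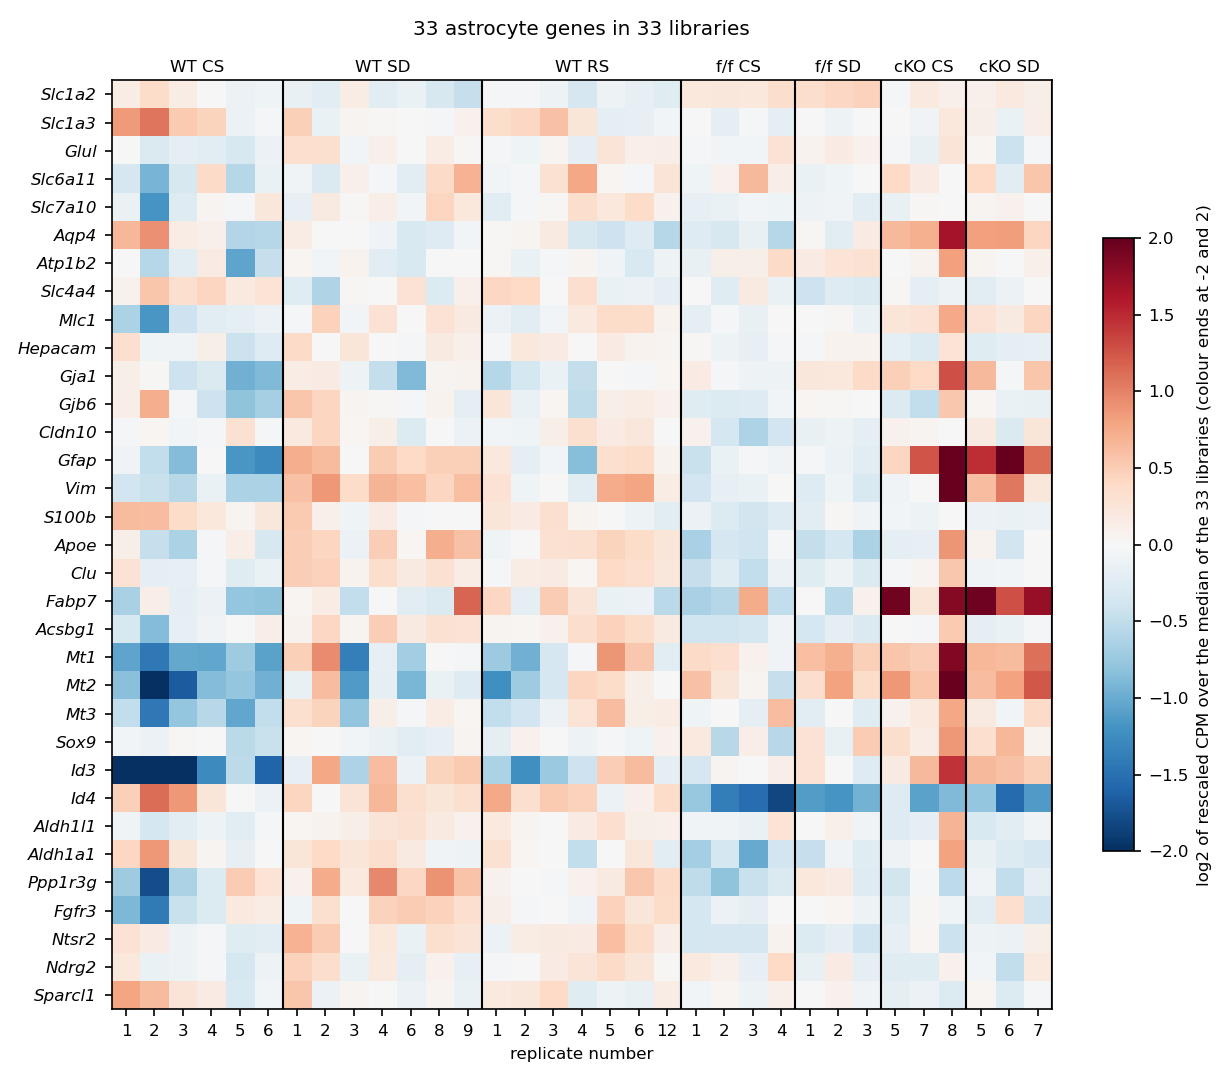
Level of each of the 33 astrocyte genes (rows) in each of the 33 libraries (columns, by group), as the log2 of the rescaled CPM over that gene's median in all libraries; colours end at -2 and 2. f/f is Mef2c f/f and cKO is Mef2c-cKO. Gfap and Vim are highest in Mef2c-cKO CS replicate 8 and lowest in WT CS replicate 6. Deposited CPM in WT and in the other genotypes were not over the same gene set.

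Values are rescaled CPM, that is, the deposited CPM (reads per gene scaled to 1000000 reads per library) divided by a scaling factor per library, and fold changes are differences of the mean of log2(rescaled CPM + 0.5) with the SE of the model. A gene was called where the adjusted p of limma was at most 0.05 and the log2FC at least 0.3 in size. Total reads per library ranged from 18935045 to 249046089, and the fewest reads of any of the 33 genes in a library were 55, and all 33 passed the filter on low values in every comparison. Listed genes summed to between 925580 and 985958 CPM in the 20 WT libraries and to 1000000 in the 13 others. Deposited CPM of WT and of the other genotypes are thus not over the same gene set, while the scaling factors came from the same 11570 genes in all libraries. The WT sums were below 970000 CPM in 4 of 6 CS, 1 of 7 SD and 3 of 7 RS libraries. Across all genes the CS to SD change in WT rose with the GC content of the transcript (Spearman's rho 0.728 over genes, none of them independent of the rest), and the GC content of the 33 genes ran from 41.4% (Aqp4) to 62.3% (Mt3). In bulk tissue, fewer astrocytes and less RNA per astrocyte cannot be told apart, and this holds for every result that follows. Mef2c RNA summed over the whole gene was 957, 1608 and 1727 in Mef2c-cKO CS and 1207, 1098, 1203 and 1080 in Mef2c f/f CS, and this sum also counts the exons that Cre leaves in place.

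Among members, levels per kb of transcript differed widely in WT CS (n = 6). The length used was that of the longest protein-coding transcript of each gene, 11595 bases for Slc1a2 and 2792 for Glul. The order of genes depends on that choice. Sparcl1, which encodes a secreted matrix protein, had the highest level per kb at 466 ± 134 (SD), followed by the lipid carrier Apoe at 391 ± 84.5 and glutamine synthetase, Glul, at 372 ± 30.4. The glutamate transporter Slc1a2 followed at 270 ± 34.7 per kb. The lowest were Ppp1r3g, a glycogen-targeting subunit of protein phosphatase 1, at 1.19 ± 0.59, the transcription factor Sox9 at 1.79 ± 0.28 and Id3 at 3.11 ± 2.24. The ranges of Sparcl1 and Apoe overlapped, as did those of Apoe and Glul, while every library had more Glul per kb than any had Slc1a2.

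In the comparison of WT CS with SD, which asks what 6 h of wakefulness changed, 15 of 33 members (45.5%) were called, the same share as the 45.1% of the 12913 genes tested. The directions were uneven, with 14 members higher in SD beside 24.6% of all genes, and 1 lower beside 20.5%. The median log2FC of the 33 was 0.31, beside 0.04 for all genes tested. The libraries of CS and SD did not overlap for Vim, Mlc1 and Aldh1l1, all higher in SD, a direction in which 4.68% of all genes did not overlap, and no member had every SD library below CS, as 10.4% of all genes did. The plot of WT changes gives every member.

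**Figure D2:**
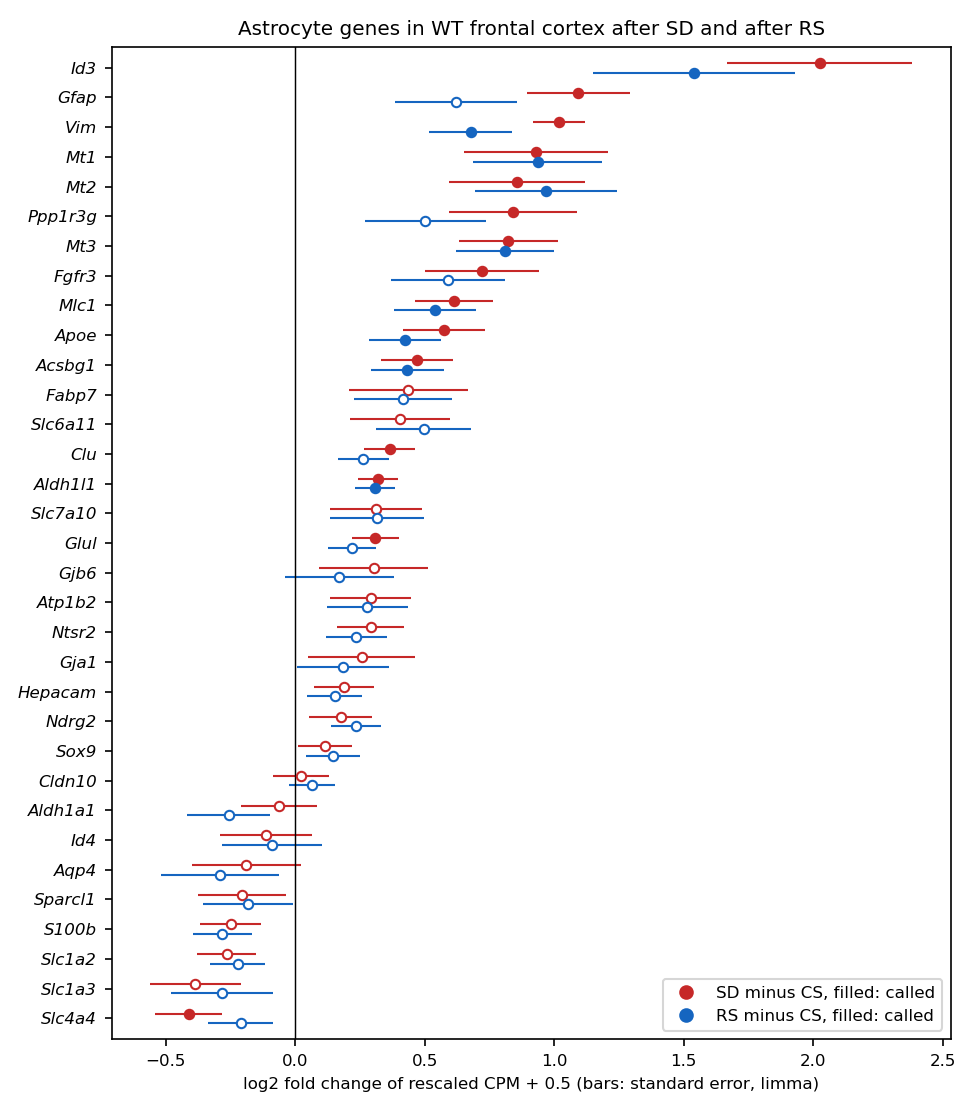
log2FC ± SE of each astrocyte gene in WT mice, SD minus CS (red) and RS minus CS (blue), on a linear axis of log2 units; filled points passed the test (adjusted p at most 0.05 and log2FC at least 0.3 in size) and both comparisons share the 6 CS libraries. Id3 has the largest change in both (2.02 in SD and 1.54 in RS), and Slc4a4 is the only filled point below 0.

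The genes of the cytoskeleton come first. Vim, an intermediate filament gene, measured 9.69, 10.7 and 13.8 (lowest, median and highest) in CS and 19.4, 22.8 and 27.4 in SD. The 7 SD libraries all lay above the 6 CS libraries. Its log2FC was 1.02 ± 0.10 (adjusted p = 0.00021, limma). Gfap, the intermediate filament that defines reactive astrocytes, measured 21.1, 32.2 and 51.2 in CS and 50.9, 71.4 and 84.7 in SD. The 2 groups met only at their edges, where the lowest SD library lay just under the highest CS library. Its log2FC was 1.09 ± 0.20 (adjusted p = 0.0015, limma). Among regulators of transcription Id3, an inhibitor of basic helix-loop-helix factors, measured 0.966, 3.39 and 8.9 in CS and 8.29, 17.4 and 21.9 in SD. The highest CS library exceeded the lowest SD library and all others were apart. Its log2FC was 2.02 ± 0.36 (adjusted p = 0.0013, limma). The related gene Id4 had a log2FC of -0.11 (adjusted p = 0.61) and Sox9, which specifies glia, one of 0.11 (adjusted p = 0.36).

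The 3 metallothionein genes lie side by side on chromosome 8 and are shown with their promoters because all 3 were called. In RefSeq GRCm38.p6 the 300 bases from 250 before to 50 after the start are given on the plus strand. Capitals mark matches to TGCACNC or TGCGCNC on either strand. These are the core letters of the element through which metals act on Mt1 and Mt2. The windows are chr8:94178839-94179138 for Mt1, chr8:94172368-94172667 for Mt2 and chr8:94152357-94152656 for Mt3.
Mt1: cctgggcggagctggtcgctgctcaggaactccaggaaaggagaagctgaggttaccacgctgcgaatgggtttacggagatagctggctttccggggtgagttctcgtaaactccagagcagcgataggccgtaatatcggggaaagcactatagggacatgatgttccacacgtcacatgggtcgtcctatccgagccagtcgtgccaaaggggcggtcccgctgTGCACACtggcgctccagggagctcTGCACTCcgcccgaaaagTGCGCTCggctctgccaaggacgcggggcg
Mt2: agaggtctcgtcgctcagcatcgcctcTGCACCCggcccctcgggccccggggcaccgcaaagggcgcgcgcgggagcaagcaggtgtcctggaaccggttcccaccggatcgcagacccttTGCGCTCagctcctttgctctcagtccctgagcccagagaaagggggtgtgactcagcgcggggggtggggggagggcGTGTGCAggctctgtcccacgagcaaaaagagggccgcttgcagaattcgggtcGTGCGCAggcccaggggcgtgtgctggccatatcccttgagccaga
Mt3: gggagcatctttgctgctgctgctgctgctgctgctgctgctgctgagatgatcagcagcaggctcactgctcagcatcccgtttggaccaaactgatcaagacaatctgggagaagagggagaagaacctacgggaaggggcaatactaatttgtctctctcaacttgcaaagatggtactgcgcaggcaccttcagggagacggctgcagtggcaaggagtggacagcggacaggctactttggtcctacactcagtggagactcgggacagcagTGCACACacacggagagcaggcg
The letters were found 3 times in Mt1, 4 times in Mt2 and once in Mt3. Of 32851 mouse promoters in the table, 25.7% held at least 1 match and 0.517% at least 4, while 27.8% of the 36 promoters found for 28 of the members held at least 1. A match is a run of letters and not a measured site.

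Mt1 measured 49.5, 64.5 and 81.5 (lowest, median and highest) in CS and 51.4, 130 and 255 in SD. Most SD libraries were above all of CS, and the lowest lay within it. Its log2FC was 0.93 ± 0.28 (adjusted p = 0.015, limma). Mt2 measured 12.1, 25.6 and 28.1 in CS and 21.9, 42.5 and 73.8 in SD, with overlap at the lower end, and had a log2FC of 0.86 ± 0.26 (adjusted p = 0.017). Mt3 measured 34.6, 58.5 and 66.2 in CS and 53.6, 100 and 126 in SD, with a small overlap. Its log2FC was 0.82 ± 0.19 (adjusted p = 0.0049). The GC content of the 3 transcripts was 52.9%, 55.6% and 62.3%. With the trend over GC content and length taken out, the log2FC was 0.58 for Mt1 (adjusted p = 0.055), -0.0012 for Mt2 and -0.31 for Mt3. Within the libraries whose listed genes summed to at least 970000 CPM (2 CS and 6 SD) Mt1 had 0.67 (adjusted p = 0.31), Mt2 0.52 (adjusted p = 0.33) and Mt3 0.74 (adjusted p = 0.08). The plot of levels by library shows these 3 genes with Gfap, Vim and Id3.

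**Figure D3:**
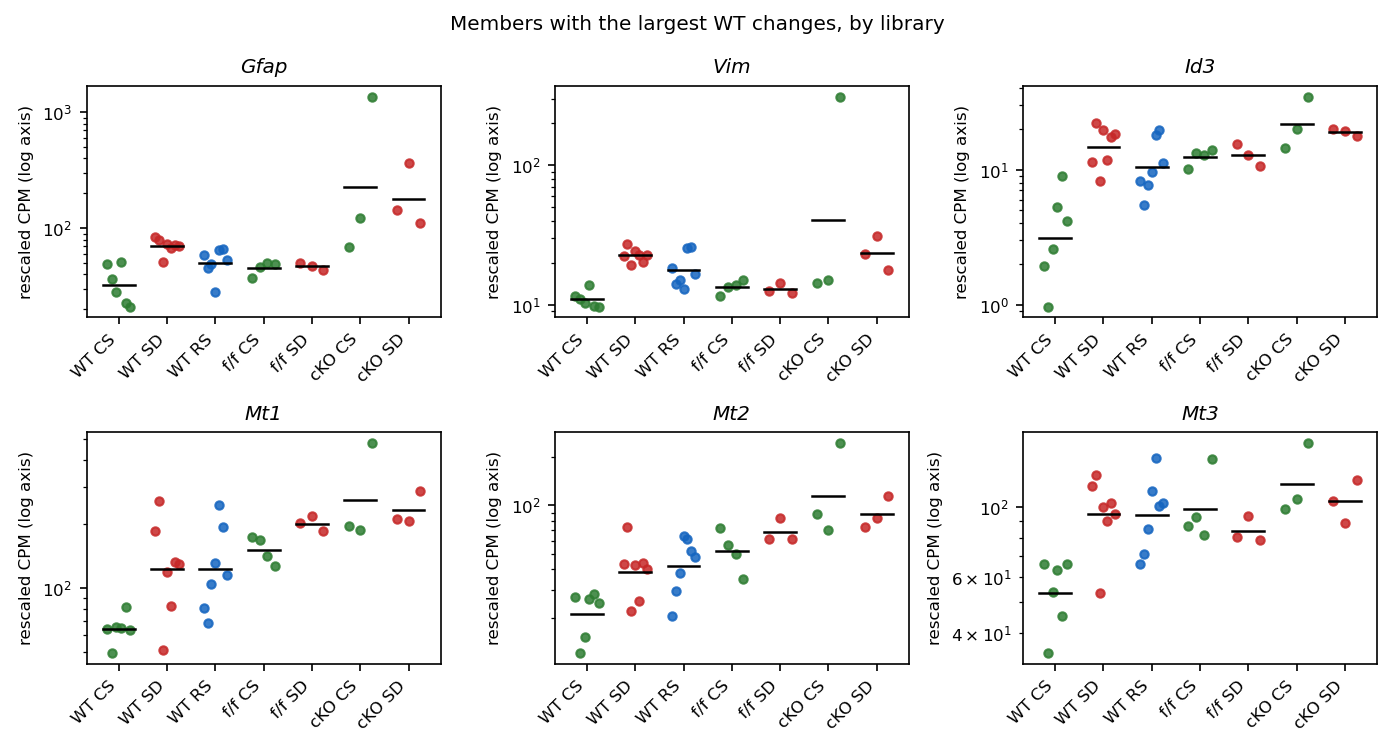
Rescaled CPM of Gfap, Vim, Id3, Mt1, Mt2 and Mt3 in each library (points) of the 7 groups, on a log axis, with the geometric mean as a black line; green is CS, red SD and blue RS, and f/f and cKO stand for Mef2c f/f and Mef2c-cKO. WT SD libraries lie above WT CS for Vim (19.4 and up against 13.8 and down), and Mef2c-cKO CS replicate 8 is highest of all for Gfap and Vim.

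Of the other genes higher in SD, Fgfr3, a growth factor receptor of astrocytes, measured 22.3, 46.6 and 68.5 in CS and 56.2, 74.8 and 84.4 in SD, and had a log2FC of 0.72 ± 0.22 (adjusted p = 0.016). Ppp1r3g was higher by 0.84 ± 0.25 (adjusted p = 0.014), from 1 to 4.84 in CS and from 3.62 to 6.63 in SD. The ranges of both genes overlapped. Mlc1, a membrane protein of end-feet, measured 30.3, 54.1 and 62.1 in CS and 65.1, 76.7 and 92.7 in SD and did not overlap, with a log2FC of 0.61 ± 0.15 (adjusted p = 0.0067). Aldh1l1, a folate enzyme used as a general astrocyte marker, measured 35.4, 40.5 and 44.1 in CS and 46.9, 49.1 and 55.8 in SD, also without overlap, and was higher by 0.32 ± 0.08 (adjusted p = 0.0054). The secreted lipid carriers Apoe and Clu were higher by 0.57 ± 0.16 (adjusted p = 0.011) and 0.36 ± 0.10 (adjusted p = 0.01). Acsbg1, which activates fatty acids, was higher by 0.47 ± 0.14 (adjusted p = 0.014) and Glul, which makes glutamine, by 0.31 ± 0.09 (adjusted p = 0.014). All 4 had ranges that overlapped between CS and SD. With the trend over GC content and length taken out, Apoe (-0.031) and Clu (-0.00075) turned below 0, and Aldh1l1 (0.06), Acsbg1 (0.14), Fgfr3 (0.36) and Ppp1r3g (0.39) were no longer called. The 1 gene lower in SD was Slc4a4, a sodium bicarbonate cotransporter, at 358, 418 and 499 in CS and 223, 341 and 415 in SD, with a log2FC of -0.41 ± 0.13 (adjusted p = 0.019). It was called in 7 of the 12 settings apart from the replicate block, and had -0.14 on CPM as deposited (adjusted p = 0.33), -0.14 with the GC trend taken out (adjusted p = 0.26) and -0.11 after quantile normalization (adjusted p = 0.43).

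The transporters that clear glutamate did not pass the test. Slc1a2 (GLT-1) measured 2724, 3112 and 3802 in CS and 2158, 2557 and 3280 in SD, with a log2FC of -0.26 ± 0.11 (adjusted p = 0.062). Slc1a3 (GLAST) measured 311, 475 and 710 in CS and 308, 346 and 474 in SD, with a log2FC of -0.38 ± 0.18 (adjusted p = 0.078). On CPM as deposited, where the median of all genes moved to about 0.30, Slc1a2 had 0.01 and Slc1a3 -0.11, and after quantile normalization Slc1a2 was higher in SD by 0.39. The water channel Aqp4 measured 58.9, 96.7 and 167 in CS and 71.7, 85.1 and 98.7 in SD (log2FC -0.19, adjusted p = 0.46), and it was higher in SD, by 0.46 (adjusted p = 0.022), within the libraries of at least 970000 CPM. In CS replicates 1 to 4, the libraries below that sum, Aqp4 was 141, 167, 98.0 and 95.3, and in replicates 5 and 6 it was 58.9 and 59.7. The part of the listed sum in these values was not tested. The gap junction genes Gja1 and Gjb6 had 0.26 (adjusted p = 0.3) and 0.30 (adjusted p = 0.23), and the GABA transporter Slc6a11 0.40 (adjusted p = 0.087).

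The other members that missed the test were of several kinds. Slc7a10, which carries serine and other small amino acids, ran from 6.37 to 16.9 in CS and from 12.9 to 19.4 in SD (log2FC 0.31, adjusted p = 0.15). Atp1b2, the beta subunit of the sodium pump in astrocytes, had 0.29 (adjusted p = 0.13), and Hepacam, the adhesion protein that anchors MLC1, 0.19 (adjusted p = 0.18). The tight junction gene Cldn10 had 0.02 (adjusted p = 0.87). Ntsr2, a neurotensin receptor, had 0.29 (adjusted p = 0.074) and Fabp7 0.44 (adjusted p = 0.12). Values below 0 were those of the calcium binding gene S100b (-0.25, adjusted p = 0.085), Sparcl1 (-0.21, adjusted p = 0.31) and the retinaldehyde dehydrogenase gene Aldh1a1 (-0.06, adjusted p = 0.73), and on CPM as deposited S100b had 0.02 and Sparcl1 0.07. Ndrg2, a cytosolic protein of astrocytes, ran from 211 to 312 in CS and from 238 to 369 in SD (0.18, adjusted p = 0.23).

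How many members were called turned on the processing. With the trend over GC content and length taken out 5 were called (Gfap, Glul, Mlc1, Id3 and Vim), and within the libraries of at least 970000 CPM 9 were (Aqp4, Gjb6, Gfap, Atp1b2, Sox9, Hepacam, Clu, Id3 and Vim). Calls over the whole table fell as well, from 5826 genes to 2476 and 1810. Gfap and Vim were called in all 12 settings apart from the replicate block and without each library in turn, with log2FC from 0.76 to 1.62 for Gfap and from 0.77 to 1.28 for Vim. Id3 was called in the 11 settings that tested it and without each library, from 1.26 to 2.25. Markers of other cells moved as well: the summed level of the meningeal fibroblast list was 12.7 to 82.2 in CS and 83.1 to 129 in SD, with 6 of its 9 tested genes higher, and fibroblasts also express Vim and Id3. Its part in the Vim and Id3 values was not tested. The microglia sum was 233 to 286 in CS and 221 to 290 in SD. The sum of the choroid plexus and ependyma list was 186 in CS replicate 1 and 63.3 in CS replicate 3, 13.1 to 24.8 in the other CS libraries and 8.43 to 15.7 in SD. Clu was highest of the CS libraries in replicate 1, and the part of these cells in its level was not tested.

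In the comparison of WT CS with RS, which shares the CS libraries with the one before, 9 of 33 members (27.3%) were called, against 17.5% of 12752 genes. All 9 were higher in RS, beside 9.28% of all genes higher and 8.22% lower. The median log2FC was 0.26, beside 0.016 for all genes. Only Aldh1l1 had every RS library above every CS library, as 1.7% of all genes did, and no member had every RS library below (2.02% of all genes). The genes called were Id3, with a log2FC of 1.54 ± 0.39 (adjusted p = 0.034), Mt2 0.97 ± 0.27 (adjusted p = 0.039), Mt1 0.94 ± 0.25 (adjusted p = 0.036), Mt3 0.81 ± 0.19 (adjusted p = 0.033), Vim 0.68 ± 0.16 (adjusted p = 0.033), Mlc1 0.54 ± 0.16, Acsbg1 0.43 ± 0.14, Apoe 0.42 ± 0.14 and Aldh1l1 0.31 ± 0.08. Mt1 measured 68.6, 116 and 247 in RS, Mt3 65.9, 100 and 142, and Vim 13, 16.6 and 25.9. The Vim values in RS reached down into those of CS and up to those of SD. Gfap measured 28.3, 53.6 and 65.9 in RS, between the medians of CS and SD, and its log2FC from CS was 0.62 ± 0.24 (adjusted p = 0.064). Slc4a4 had -0.21 (adjusted p = 0.19). The count fell to 0 when any one of CS replicates 2 and 3 or RS replicates 3, 4, 5, 6 and 12 was left out, to 1 without CS replicate 1, and to 2 (Mt1 and Id3) with the trend over GC content and length taken out. The whole table moved the same way, from 2232 genes called to at most 98 in the fits with no member called, to 223 without CS replicate 1 and to 612 with the trend taken out.

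The comparison of SD with RS sets 6 h of wakefulness beside 4 h of wakefulness followed by 2 h of sleep. Length of deprivation and recovery sleep both differ between these groups and cannot be told apart. No member was called by limma, edgeR or DESeq2, against 0.0232% of 12921 genes in the limma fit, and 3 members had an unadjusted p of at most 0.05 in limma. These were Gfap, lower in RS by a log2FC of -0.47 ± 0.16 (adjusted p = 0.58), Vim with -0.34 (adjusted p = 0.86) and Ppp1r3g with -0.34 (adjusted p = 0.77). The metallothioneins had values near 0, 0.01 for Mt1, 0.11 for Mt2 and -0.01 for Mt3. The median over the 33 genes was -0.03. A p that misses the threshold does not show that the levels were equal.

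In Mef2c f/f mice, the same 6 h of wakefulness was compared with CS in 4 and 3 libraries. No member was called by limma or edgeR, against 0.0403% of 12410 genes called in the limma fit, 6 members had an unadjusted p of at most 0.05 in limma, and DESeq2 called Mt1. The median log2FC was 0.09. Mt1 measured 174, 168, 142 and 127 in CS and 202, 217 and 185 in SD. All 3 SD libraries were above the 4 of CS. Gja1, Gjb6 and Ppp1r3g also had every SD library above every CS library, and Slc4a4 had every SD library below (8.53% and 8.9% of all genes did not overlap in these directions). Slc4a4 measured 338, 286, 385 and 309 in CS and 253, 283 and 276 in SD. Gfap measured 37.5, 46.6, 50.5 and 49.0 in CS and 50.5, 47.4 and 43.8 in SD, with a log2FC of 0.05 (adjusted p = 0.84).

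The CS to SD change itself was then compared between Mef2c f/f and WT mice in 1 fit. It was lower in Mef2c f/f for 4 members (12.1%) and higher for none, against 15.1% of 13106 genes that differed, 5.78% lower and 9.35% higher. These were Vim, with a difference of -1.06 ± 0.16 (adjusted p = 0.0061), Id3 -1.98 ± 0.53 (adjusted p = 0.028), Gfap -1.04 ± 0.30 (adjusted p = 0.033) and Mt3 -1.05 ± 0.31 (adjusted p = 0.036). Their changes in Mef2c f/f alone were -0.04 for Vim, 0.05 for Id3 and -0.23 for Mt3. Id3 was at 10.2 to 14.0 in Mef2c f/f CS and at 0.966 to 8.9 in WT CS, from libraries whose deposited CPM were over different gene sets. The meningeal fibroblast sum was 72.5 to 84.5 in Mef2c f/f CS and 78.3 to 115 in Mef2c f/f SD, beside the WT range from 12.7 to 129, and its part in the differences was not tested. With the trend over GC content and length taken out, Vim differed by -0.76 (adjusted p = 0.016) and was the 1 member called, and Mt3 turned to 0.0897. Without any one of the 3 Mef2c f/f SD libraries, or of Mef2c f/f CS replicates 2 and 4, Vim was again the 1 member of these 4 called, while all genes called fell from 1983 to between 23 and 866. Genotype and the gene set over which CPM were deposited cannot be told apart here. The labels do not say whether libraries of both genotypes were made together.

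Mef2c-cKO was compared with Mef2c f/f in each state. This contrast takes in loss of Mef2c from excitatory neurons, the presence of Cre and, in mice with germline recombination, possible loss in other cells. No mice with Cre alone were sequenced, so the presence of Cre and the loss of Mef2c cannot be told apart. In SD 6 members (18.2%) were called, against 15.1% of 12774 genes. All 6 were higher in Mef2c-cKO, beside 9.1% of all genes higher and 5.99% lower. The median log2FC was 0.16, beside 0.01 for all genes. In 11 members every Mef2c-cKO library was above every Mef2c f/f library (21.6% of all genes), and in 5 (Slc1a2, Glul, Aldh1l1, Atp1b2 and Hepacam) every one was below (18.7%). Fabp7, a fatty acid binding protein of radial glia and astrocytes, measured 17.7, 12.2 and 18.8 in Mef2c f/f SD and 68.4, 43.1 and 59.1 in Mef2c-cKO SD. The groups were far apart. Its log2FC was 1.78 ± 0.20 (adjusted p = 0.0014, limma). Gfap measured 143, 364 and 111 in Mef2c-cKO SD, all above the 43.8 to 50.5 of Mef2c f/f SD, and had 1.91 ± 0.37 (adjusted p = 0.012). Vim measured 23, 31.2 and 17.7 against 12.6, 14.2 and 12.2, with 0.82 ± 0.18 (adjusted p = 0.019). Both filament genes were highest in replicate 6, where the reactive gene list summed to 356, beside 175 and 156 in the other 2.

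Aqp4 measured 90.3, 76.3 and 99.3 in Mef2c f/f SD and 157, 159 and 119 in Mef2c-cKO SD, without overlap, and had a log2FC of 0.70 ± 0.13 (adjusted p = 0.011). Id3 had 0.54 ± 0.13 (adjusted p = 0.028) and Mlc1 0.33 ± 0.08 (adjusted p = 0.028). The meningeal fibroblast sum was 102 to 149 in Mef2c-cKO SD and 78.3 to 115 in Mef2c f/f SD. Its part in the Vim and Id3 values was not tested. Slc1a2 measured 3756, 3927 and 4056 in Mef2c f/f SD and 3176, 3381 and 3216 in Mef2c-cKO SD. All 3 Mef2c-cKO libraries were lower, and the log2FC was -0.26 (adjusted p = 0.089). Hepacam had -0.23 (adjusted p = 0.043), which is under the fold threshold. Without Mef2c-cKO SD replicate 6, 11 members were called, with Gja1, Slc6a11, Apoe, Mt3 and Cldn10 added to the 6, and Gfap had 1.40 (adjusted p = 1.3e-05). Without Mef2c f/f SD replicate 3 only Aqp4 (0.79, adjusted p = 0.025) and Fabp7 (1.89, adjusted p = 0.0064) were called.

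**Figure D4:**
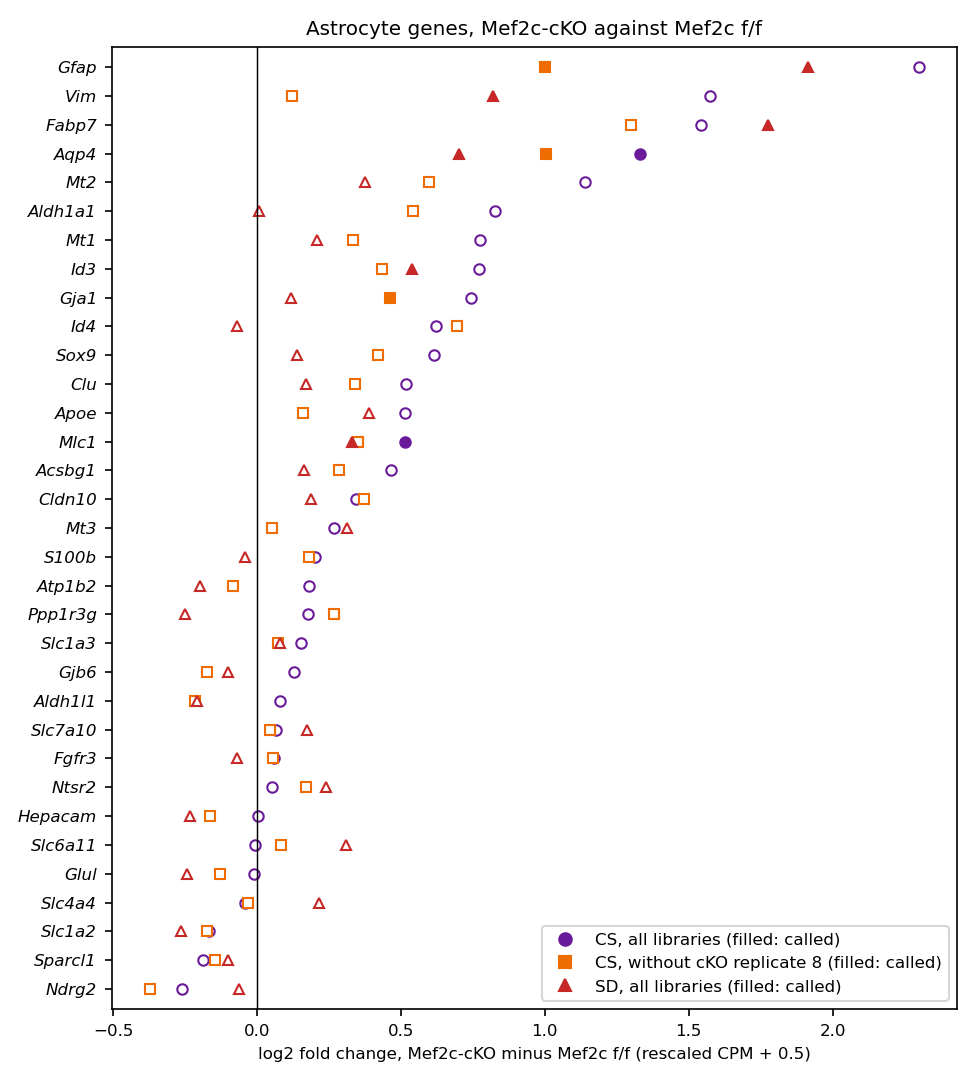
log2FC of each astrocyte gene, Mef2c-cKO minus Mef2c f/f, in CS with all libraries (purple circles), in CS without Mef2c-cKO replicate 8 (orange squares) and in SD (red triangles); filled symbols passed the test. Vim moves from 1.57 to 0.12 in CS when that library is left out, and Aqp4 from 1.33 to 1.0.

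In CS 2 members (6.06%) were called, Aqp4 and Mlc1, against 7.67% of 12681 genes. Both were higher in Mef2c-cKO, beside 3.17% of all genes higher and 4.5% lower. The median log2FC was 0.27, beside 0.03 for all genes. For 10 members every Mef2c-cKO library was above every Mef2c f/f library (13.4% of all genes), and for 2 every one was below (13.5%). Aqp4 measured 74.2, 70.9, 80.2 and 59.8 in Mef2c f/f CS and 139, 146 and 281 in Mef2c-cKO CS. All 3 of the latter were clearly above, replicate 8 most. Its log2FC was 1.33 ± 0.23 (adjusted p = 0.015, limma). Mlc1 measured 59.4, 66.2, 61.0 and 68.1 in Mef2c f/f CS and 79.9, 82.7 and 114 in Mef2c-cKO CS, with 0.51 ± 0.13 (adjusted p = 0.045). The call of Aqp4 was lost without Mef2c f/f CS replicate 2 (1.33, adjusted p = 0.057), which left none called, and Mlc1 held its call in 1 of the 7 fits that left out a library.

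Mef2c-cKO CS replicate 8 stood apart from the other 2 Mef2c-cKO CS libraries. Gfap measured 68.9, 122 and 1368 in replicates 5, 7 and 8, Vim 14.3, 14.9 and 311, and Mt1 195, 188 and 480. Apoe measured 538, 549 and 1136 in the same order. The reactive gene list, without the members, summed to 133, 141 and 582 in these libraries, and the microglia list to 241, 304 and 828, beside 199 to 237 in Mef2c f/f. The part of microglia in these levels was not tested. With all libraries Gfap had a log2FC of 2.30 ± 0.82 (adjusted p = 0.11) and Vim 1.57 ± 0.91 (adjusted p = 0.28). Without replicate 8, Gfap had 1.0 (adjusted p = 0.036), Aqp4 1.0 (adjusted p = 0.0073) and Gja1 0.46 (adjusted p = 0.046), and these 3 were called. Vim then had 0.12 (adjusted p = 0.61) and Mlc1 0.35 (adjusted p = 0.072), and the median of the 33 genes was 0.17. The choroid plexus list summed to 314 in Mef2c-cKO CS replicate 5, far above the other libraries of the 2 genotypes, and its part was not tested.

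**Figure D5:**
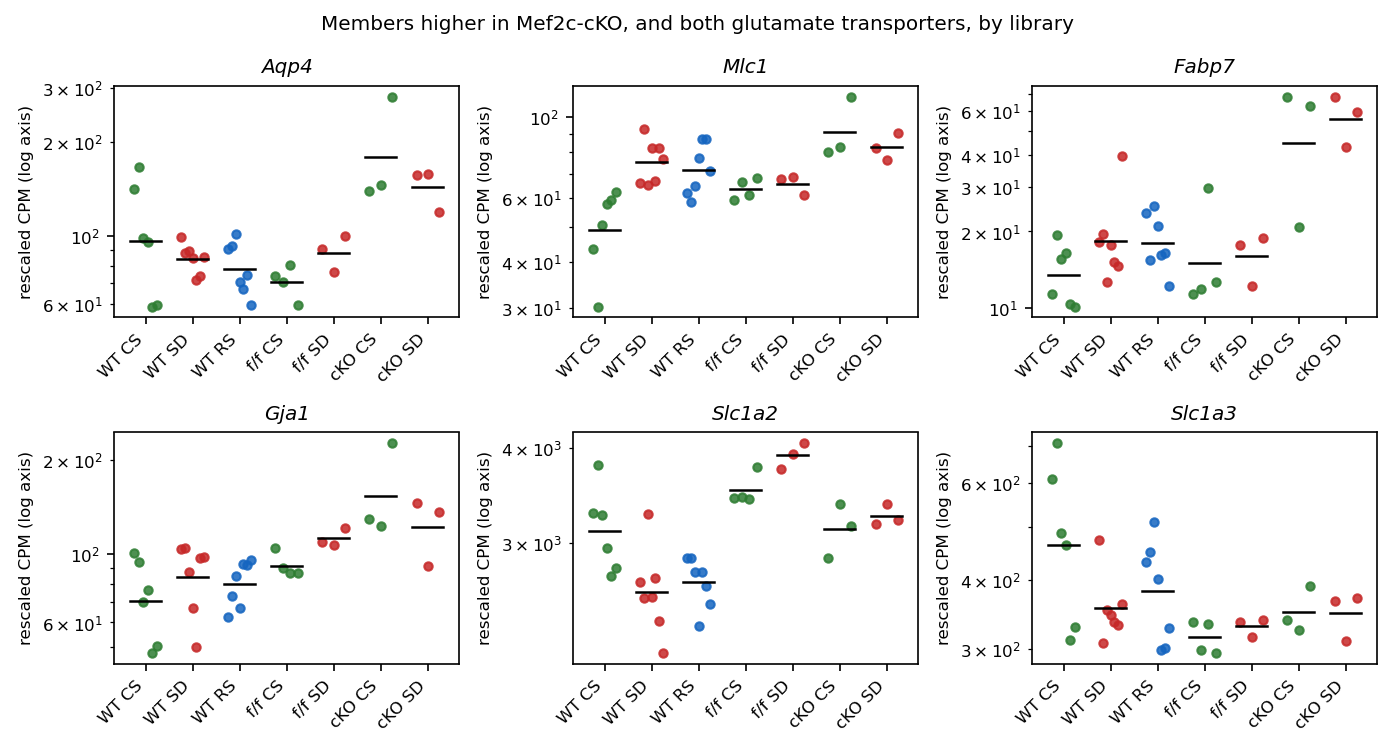
Rescaled CPM of Aqp4, Mlc1, Fabp7, Gja1, Slc1a2 and Slc1a3 in each library (points) of the 7 groups, on a log axis, with the geometric mean as a black line (green CS, red SD, blue RS; f/f is Mef2c f/f and cKO is Mef2c-cKO). Aqp4 is at 119 or more in every Mef2c-cKO library and at 99.3 or less in every Mef2c f/f library.

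Within Mef2c-cKO no member passed the test between CS and SD by limma, edgeR or DESeq2 (0.0234% of 12810 genes called in the limma fit, 0 members with an unadjusted p of at most 0.05). In 3 members, Acsbg1, Aldh1a1 and S100b, every SD library was below every CS library (4.56% of all genes), and in none was every SD library above (4.49% of all genes). The median was -0.13 with all libraries and 0.03 without CS replicate 8, which also took Gfap from -0.34 to 0.96 and Vim from -0.80 to 0.66, none of them called. The difference of the CS to SD change between Mef2c-cKO and Mef2c f/f was called for none of the 33 (0.00778% of 12860 genes), with 3 at an unadjusted p of at most 0.05, Gja1, S100b and Aldh1a1, and 0 by edgeR and DESeq2. The values were -0.38 for Gfap, -0.76 for Vim and -0.63 for Aqp4 (adjusted p = 0.63). Without Mef2c-cKO CS replicate 8 they were 0.91 for Gfap, 0.70 for Vim and -0.30 for Aqp4, so that the sign turned for both filament genes, and none was called.

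Other genes of astrocytes, from lists and not members, were read from the main limma fits alone. Their values with the GC trend taken out, or within the libraries of at least 970000 CPM, are not given here. All genes called in WT CS to SD fell from 5826 to 2476 and 1810 in these 2 settings. Of 29 other astrocyte-enriched genes tested in WT, 14 were higher and 3 lower in SD (median 0.24), beside 24.6% and 20.5% of all genes, and 5 were higher and 2 lower in RS, beside 9.28% and 8.22%. Cst3, a protease inhibitor, was higher in SD at 525 ± 168 (SD, n = 7) against 251 ± 133 (n = 6) in CS, and Prodh, of proline breakdown, at 29.6 ± 3.38 against 17.7 ± 1.79. The receptor tyrosine phosphatase Ptprz1 (log2FC -0.49) and the zinc transporter Slc39a12 (-0.37) were lower. Of 22 reactive astrocyte genes 11 were higher in SD and none lower (median 0.39), among them complement C4b, with a log2FC of 1.18 (adjusted p = 0.0017), and Aspg, with 1.31 (adjusted p = 0.0006). Of 12 glucocorticoid-induced genes 8 were higher and none lower, led by Plin4 at 2.00 and Ddit4 at 1.65. With another list, of a gene ontology term for the glucocorticoid response, the study found no significant excess among genes raised by SD. Of 13 genes of glycogen metabolism 1 was higher and 2 were lower, and of 19 zinc genes 3 were higher and 3 lower, and no gene of these lists was called in Mef2c f/f between CS and SD, where 5 of all 12410 genes were.

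In Mef2c-cKO SD, C4b was again high, at 20.7 ± 4.44 against 6.4 ± 0.69 in Mef2c f/f SD (SD, n = 3 each; log2FC 1.60, adjusted p = 0.00061), with Aspg at 1.42 (adjusted p = 0.020), and 5 of 25 reactive genes were higher and none lower, beside 9.1% and 5.99% of all genes. Microglia genes were higher too, 8 of 10 tested and none lower in SD, among them C1qb (0.67), C1qa (0.58) and Trem2 (0.56). Their part in the values of members was not tested. Ednrb, the endothelin receptor of astrocytes, was higher in Mef2c-cKO in CS (1.14, adjusted p = 0.0041) and in SD (0.61, adjusted p = 0.0076).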

How the data were processed

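Frontal cortex RNA was sequenced in 33 libraries. Reads were trimmed with Trimmomatic, aligned to mm10 with STAR and counted over uniquely mapped reads with HTSeq by the authors, who deposited CPM values made with edgeR; the annotation release is not given in the sources used here. Every one of the 711645 values was a whole number of reads, within 0.01, once divided by the value of 1 read. CPM was divided by median-of-ratios factors over 11570 genes and tested as log2(value + 0.5) with limma 3.58.1 (trend, R 4.3.3), on the compared groups alone, for genes that reached a CPM of 1 in each library of a compared group. Genes were called at an adjusted p (Benjamini-Hochberg) up to 0.05 and a log2FC of 0.3 or more in size (differences of changes by adjusted p alone). edgeR 4.0.16 and DESeq2 1.42.0 on the recovered reads, other pseudocounts, scalings, filters, a correction for GC content and transcript length, a replicate block and each library left out were alternatives. Transcript lengths and GC content came from GENCODE, promoters from RefSeq. The longest transcript of each gene was used, protein-coding where there was one. The scripts were tested on simulated data. The members and lists were chosen with earlier results of these data known. The named genes were all 33 members, and genes of the lists that were called. The labels do not say how samples of a group were kept apart, so p-values measure the spread between these samples, which may in part be technical.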

Additional observations from a re-analysis of the deposited data

Results flagged for a closer look

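Within groups of 4 to 7 libraries, 15 of 132 tests by gene and group had a library far from the rest by Dixon's test, and chance flags about 1 in 20; groups of 3 were not tested. Mef2c f/f CS replicate 4, the library with the fewest reads (18935045), was highest for Slc1a2 (3772, next 3452), Gjb6 (34.2), Aldh1l1 (54.9, next 43.3), Glul (1437, next 1141), Ntsr2 (42.5) and Acsbg1 (78.8), and replicate 3 of that group was highest for Fabp7 (29.6, next 12.6). WT SD replicate 1 was highest for Slc1a3 (474), S100b (96.1) and Sparcl1 (1529), replicate 2 for Mt2 (73.8) and replicate 9 for Fabp7 (39.7, next 19.6). Slc6a11 was highest in WT RS replicate 4 (117), Clu in WT CS replicate 1 (394) and Cldn10 in WT CS replicate 5 (22.8). The CS to SD change differed between Mef2c f/f and WT, tested as an interaction in limma, for Gfap (-1.04), Mt3 (-1.05), Id3 (-1.98) and Vim (-1.06).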

How the results depend on the processing

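Members called in WT CS to SD numbered 15 and ranged from 14 to 17 with 1 library left out. With a yes or no term for libraries below 970000 listed CPM they numbered 13, and all genes called 2949. They were 24 on CPM as deposited, 5 with the GC content and length correction, 9 within libraries of at least 970000 listed CPM and 3 with a replicate block (Gfap, Vim and Id3), while all genes called went from 5826 to 6907, 2476, 1810 and 287. For WT CS to RS the count of 9 became 17 on CPM as deposited, 2 with the GC correction, 15 within libraries of at least 970000 CPM, 1 with no filter on low values, 12 with the replicate block and 0 to 11 with 1 library left out, and all genes called went from 2232 to 2665, 612, 2394, 385, 4279 and 0 to 3740. In Mef2c f/f CS to SD the count of 0 became 1 with DESeq2 and 0 to 2 with 1 library left out (2 without Mef2c f/f CS replicate 1), where all genes called went from 5 to 467 and 0 to 590. Mef2c-cKO against Mef2c f/f in CS gave 2, and 8 on CPM as deposited, 9 with DESeq2, 4 with edgeR, 1 with no filter, 4 with quantile normalization and 0 to 4 with 1 library left out (1 without Mef2c f/f CS replicate 4, 4 without Mef2c-cKO CS replicate 5), with 857 to 2095 of all genes called over the settings and 171 to 875 over the fits without 1 library. In SD it gave 6, and 2 to 11 with 1 library left out (822 to 2447 of all genes). The difference of the change between Mef2c f/f and WT gave 4, and 12 on CPM as deposited, 1 with the GC correction, 2 with the listed sum as a term, 2 with no filter, 0 with the replicate block and 1 to 6 with 1 library left out, and all genes called went from 1983 to 3426, 274, 581, 1142, 0 and 23 to 3300. The other 3 comparisons gave 0 in all settings and fits tried. Under the GC correction the sign turned for Clu (-0.00075), Apoe (-0.031), Mt2 (-0.0012) and Mt3 (-0.31) in WT CS to SD, for Apoe (-0.089) and Mt3 (-0.14) in CS to RS, and for Mt3 (0.0897) in the difference between Mef2c f/f and WT. In WT CS to SD Aqp4 turned to 0.46 within libraries of at least 970000 CPM and Slc1a2 to 0.39 after quantile normalization. The cause was not tested. Both alternatives on the listed sum were chosen after seeing the data. Samples were not taken as paired, since in no comparison did every pair of same-numbered libraries correlate above 0.1 and the labels tie no number to a shared animal, litter or day. The correlations ranged from -0.301 to 0.6482 in WT CS and SD, from 0.0495 to 0.6598 in CS and RS, where each exceeded the median of the other pairings, from -0.7264 to 0.3549 in SD and RS, from 0.0541 to 0.2943 in Mef2c f/f, and were 0.0657 and 0.1557 in Mef2c-cKO. In WT and Mef2c f/f not every sample correlated best with its own number. For Mef2c-cKO against Mef2c f/f within CS or SD no paired fit was made, as these groups share no replicate numbers.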
